A study of Homo sapiens with 4 samples.

Results

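The genes described here are 10 early response genes: IER2, IER3, IER5 and IER5L of the immediate early response group, the transcription factor genes EGR1, SRF and NR4A1, and BTG1, BTG2 and TOB1 of the BTG/TOB family. They were found by symbol in the table of read counts per gene, and all 10 were among its 42169 gene rows. Transcript levels had been measured by RNA sequencing in Huh7 cells, a human hepatoma line. The control clone (clone 1, labelled WT) was compared with clone 18, labelled Brf1/TTP DKO, in which the genes for TTP (ZFP36) and BRF1 (ZFP36L1) had been knocked out, and each clone gave 2 libraries. Cells of both clones had received DMSO for 3 h and then 5 µg/ml actinomycin D, an inhibitor of transcription, for 10 min. Each genotype was 1 clone, so genotype and clone cannot be told apart, and no library without actinomycin D was used here. Whether the 2 libraries of a clone stem from different cultures is not stated in the labels, so the p-values reflect library-to-library spread only, and that spread may be technical.

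Early response genes are transcribed within minutes of a growth factor or stress signal from factors already present in the cell, and many of their mRNAs are short-lived. Serum response factor, the product of SRF, binds the CArG box in promoters such as that of EGR1 and works there with ternary complex factors activated by the ERK kinases or with actin-regulated cofactors of the MRTF family. Many of these mRNAs carry AU-rich elements in the 3′ UTR, the sequences that TTP and BRF1 bind before they recruit the CCR4-NOT deadenylase. BTG and TOB proteins belong to the same branch of RNA turnover, since they bridge the deadenylase subunits CNOT7 and CNOT8 to mRNA.

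Libraries held between 9685798 and 16430228 counts on genes, so that 3 counts corresponded to between 0.183 and 0.310 CPM (the count scaled to the library's total over genes). The hepatocyte markers were all detected in all 4 libraries, with a summed level between 25354 and 28802 CPM. Single markers differed more than the sum: AFP was at 7565 and 8082 CPM in control and 3708 and 3386 CPM in DKO, and AHSG at 152 and 168 against 507 and 554 CPM. Of 4 endothelial markers 3 were at 0, the leukocyte gene CD3E was at 0, and the fibroblast list summed to between 90.8 and 139 CPM. The leukocyte list summed to 79.2 and 77.5 CPM in the control libraries and to 112 and 127 CPM in the DKO libraries, nearly all of it from LYZ, and its part in the results was not tested. ZFP36 mRNA was at 30.04 and 23.3 CPM in the control libraries and 37.5 and 36.2 CPM in the DKO libraries, and ZFP36L1 mRNA at 135 and 109 against 147 and 118 CPM. Neither differed by the test (edgeR adjusted p = 0.207 and 0.775), and since the sources used here do not name the kind of mutation, these mRNA levels do not check the labels.

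The sequences that bear most directly on the knocked-out proteins are the copies of UAUUUAU, a core of the AU-rich element, in the 3′ UTRs. They were read from GENCODE 29 transcripts on hg38, using the longest annotated 3′ UTR of each gene, and each window below is written 5′ to 3′ along the mRNA with every copy in capitals. IER3 and IER5 are shown because they hold the most copies, SRF because it is the other member with the longer motif UUAUUUAUU, and BTG2 as the member with a single copy near its stop codon.
IER3, chr6:30743648-30743676, minus strand: aauuaaUAUUUAUaugUAUUUAUguacgu
IER3, chr6:30743601-30743629, minus strand: uguguacguaaUAUUUAUuuuaacuuaug
IER3, chr6:30743538-30743566, minus strand: aggucucuuggUAUUUAUugagcuuugug
IER5, chr1:181092447-181092475, plus strand: cuuccuuUAUUUAUUUAUUUAUuuaauua
SRF, chr6:43179224-43179252, plus strand: auggcaccacuUAUUUAUuguugccuuuu
BTG2, chr1:203307528-203307556, plus strand: aaaugaagagcUAUUUAUauauauuauuu

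IER3 carried 4 copies of UAUUUAU within 122 bases of a 3′ UTR of 903 bases, which is 4.43 copies per kb, and none of them lay in the 9-base motif UUAUUUAUU. IER5 also carried 4 copies, 3 of them overlapping in the run shown above and each inside UUAUUUAUU, in a longer 3′ UTR of 3013 bases (1.33 copies per kb). SRF carried 2, and BTG1 and BTG2 1 each. IER2, IER5L, EGR1, TOB1 and NR4A1 carried none, so 5 of the 10 genes had the 7-base motif. Among 11889 tested protein-coding genes with an annotated 3′ UTR, 36.1% had at least 1 copy, 3.45% had 4 or more, and 0.690% had at least 4 per kb, as IER3 did. UUAUUUAUU was found in 9.38% of these genes, and 3 or more copies, as in IER5, in 0.723%. The shorter pentamer AUUUA was present in 9 of the 10 members, IER2 being the exception, and in 74.5% of the tested genes. A match is a description of the letters and does not show that a protein binds there.

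**Figure D1:**
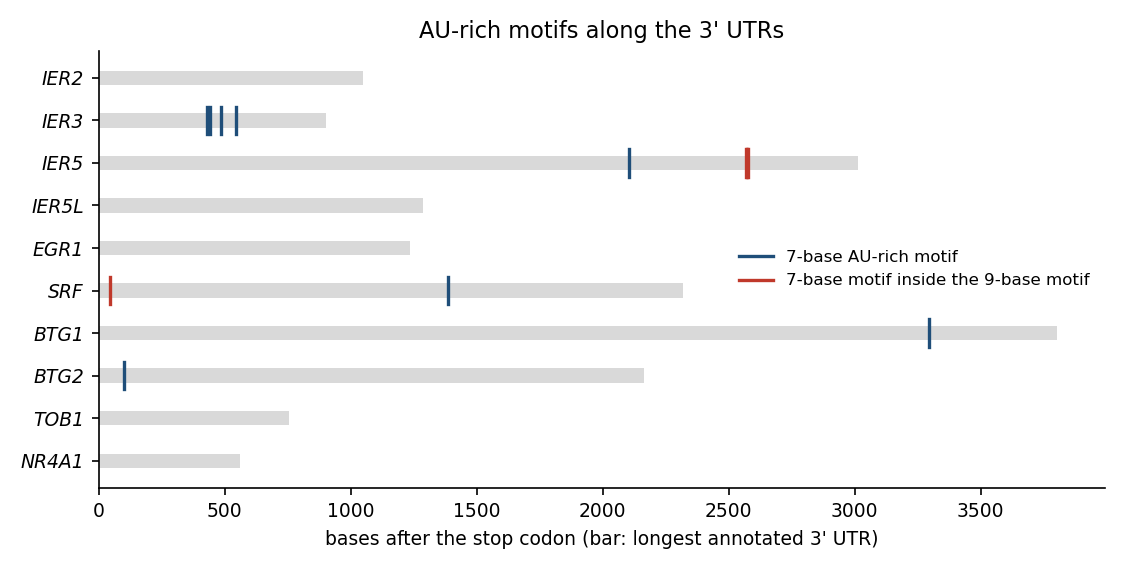
AU-rich motifs along the longest annotated 3′ UTR of each of the 10 genes. The horizontal axis gives bases after the stop codon, grey bars the length of the 3′ UTR, blue ticks copies of the 7-base motif and red ticks copies that lie inside the 9-base motif; the 4 copies of IER3 sit within 122 bases and 3 of the 4 copies of IER5 overlap.

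IER3 mRNA was higher in the DKO clone, and it was the member of the 10 that passed the test. IER3 (ENSG00000137331.11, chromosome 6, 30743199 to 30744554, hg38, minus strand) encodes a small stress-induced protein that modulates apoptosis and ERK signalling. Its level was 51.4 and 61.9 CPM in the control libraries and 117 and 163 CPM in the DKO libraries. Both DKO libraries lay well above both control libraries, and the 2 DKO libraries also differed from each other more than the control libraries did. The mean rose 2.47-fold, from 56.7 ± 7.40 to 139.9 ± 32.9 CPM (SD, n = 2), with a log2 fold change of 1.31 (SE 0.22, 95% interval 0.84 to 1.79, edgeR quasi-likelihood adjusted p = 0.00332). The interval corresponds to a fold between 1.79 and 3.45. The call did not hold without DKO replicate 2, where the log2 fold change was 1.03 (edgeR adjusted p = 0.0781), or with the totals of the ERCC spike-in RNAs as library sizes, where it was 0.57 (edgeR adjusted p = 0.461). Its 50 nearest tested protein-coding neighbours on chromosome 6 had a median log2 fold change of 0.02.

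Across the 10 genes, 1 was called higher, 0 lower, and 9 did not pass. Among all 13359 tested genes 5.37% were called, 2.24% higher and 3.14% lower. All 10 passed the filter on low counts. By unadjusted edgeR p-values under 0.05 there was 1 member, IER3, and none lower, while 20.2% of all tested genes had such a p, 9.57% higher and 10.6% lower. With DESeq2 1 member was called, as were 5.18% of all genes, and with limma-voom 1 member and 5.25%. The median log2 fold change of the 10 was 0.10, against 0.00 over all genes tested, and 6 of the 10 had positive values. With ERCC totals 1 of the 10 values was positive, and the median of all tested genes shifted to -0.68, so every direction in the text is relative to the bulk of genes. Relative to the counts on genes, spike-ins made up 1.49% and 0.955% for the control clone and 1.65% and 2.14% for the DKO clone. For 3 members, IER3, EGR1 and BTG2, each DKO library exceeded each control library, and for 0 members each lay below. The clones did not overlap for 49.9% of all tested genes, with DKO above in 23.7% and below in 26.2%.

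**Figure D2:**
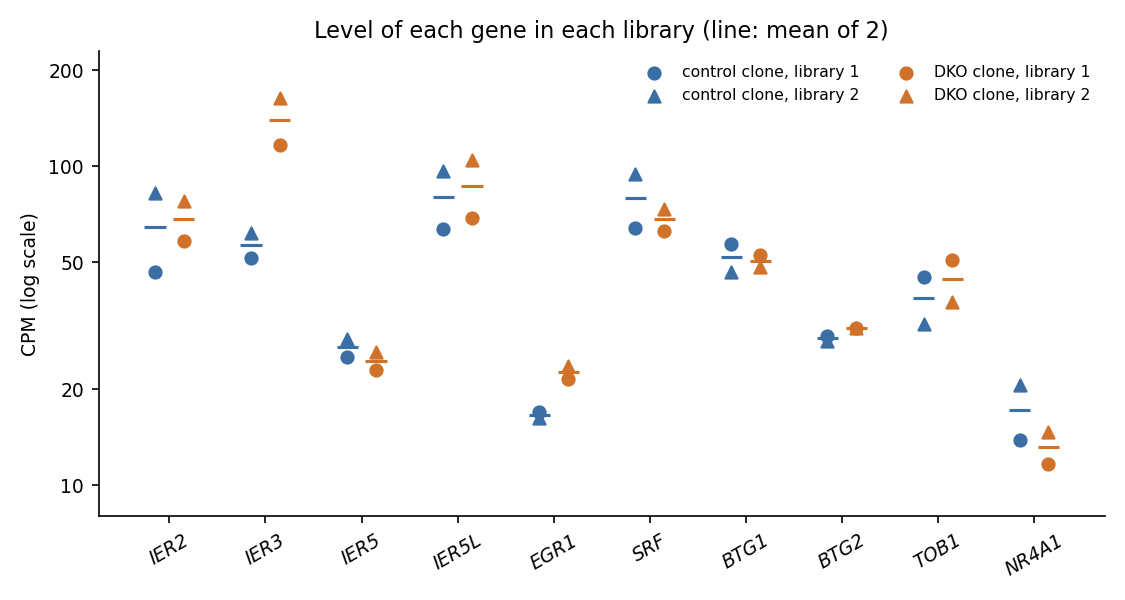
Level of each of the 10 genes in each library, in CPM on a log scale. Blue marks the control clone and orange the DKO clone, circles library 1 and triangles library 2, and lines the mean of 2. IER3 is at 117 and 163 CPM in DKO against 51.4 and 61.9 CPM in control. IER2, IER3, IER5, IER5L, SRF and NR4A1 are higher in library 2 of both clones.

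The other members of the immediate early response group did not pass the test. IER2 (chromosome 19, 13150415 to 13154908), which encodes a nuclear protein induced by growth factors, was at 46.8 and 82.2 CPM in the control libraries and at 58.3 and 78.0 CPM in the DKO libraries. The DKO values fell inside the control range, and the log2 fold change was 0.08 (SE 0.26, 95% interval -0.46 to 0.63, edgeR adjusted p = 0.894). Leaving out control replicate 2 gave 0.59, leaving out control replicate 1 gave -0.29, and leaving out DKO replicate 2 gave -0.17. IER5 (chromosome 1, 181088712 to 181092899), whose product binds the phosphatase PP2A and the heat shock factor HSF1, was at 25.3 and 28.9 CPM in control and 23.0 and 26.1 CPM in DKO. The groups overlapped, and the interval of its log2 fold change, -0.59 to 0.33 around -0.13 (edgeR adjusted p = 0.794), did not reach the value of IER3. Without 1 library it ran from -0.25 to -0.0029, and with ERCC totals it was -0.85. IER5L (chromosome 9, 129175552 to 129178262), a paralogue of IER5, was at 63.6 and 96.7 CPM in control and at 68.7 and 104.5 CPM in DKO. Each clone had a low and a high library, and the log2 fold change was 0.12 (SE 0.25, 95% interval -0.41 to 0.65, edgeR adjusted p = 0.843). It was negative without control replicate 1 (-0.18) or DKO replicate 2 (-0.24). In the transcript with the longest 3′ UTR, IER3, IER5 and IER5L have 1 exon, a structure found in 2.26% of the tested protein-coding genes, and IER3 also has an annotated spliced transcript.

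IER3 and IER5 shared a count of 4 copies of UAUUUAU and differed in the comparison, IER3 rising 2.47-fold and IER5 having a ratio of means of 0.906. The 95% intervals of their log2 fold changes, 0.84 to 1.79 and -0.59 to 0.33, did not overlap, though the difference between the genes was not tested. Over all tested genes with a 3′ UTR, the 410 with at least 4 copies had a median log2 fold change of 0.05 and 1.71% were called higher, against a median of -0.03 and 2.40% among the 7593 with none.

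Among the transcription factor genes, EGR1 (chromosome 5, 138465490 to 138469315) was next to IER3 in size. EGR1 encodes a zinc finger protein that binds GC-rich sites, and its mRNA was at 17.0 and 16.2 CPM in the control libraries and at 21.5 and 23.7 CPM in the DKO libraries. The 2 libraries of each clone lay close together, and the clones did not overlap. The mean was 1.36-fold higher in DKO, with a log2 fold change of 0.46 (SE 0.22, 95% interval -0.01 to 0.92), and it did not pass (edgeR adjusted p = 0.256). It lay between 0.36 and 0.54 when any 1 library was left out, and was -0.24 with ERCC totals. SRF (chromosome 6, 43171299 to 43181507) was at 64.2 and 94.7 CPM in control and at 62.7 and 73.6 CPM in DKO. The groups overlapped, and the log2 fold change was -0.22 (95% interval -0.69 to 0.26, edgeR adjusted p = 0.644), or 0.13 without control replicate 2. NR4A1 (chromosome 12, 52022832 to 52059507), which encodes the orphan nuclear receptor Nur77, was at 13.8 and 20.6 CPM in control and 11.7 and 14.7 CPM in DKO. The groups overlapped. Its log2 fold change was -0.38 (95% interval -0.93 to 0.18, edgeR adjusted p = 0.451). It was -0.66 without control replicate 1 (edgeR adjusted p = 0.0511) and -0.02 without control replicate 2.

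The promoters of EGR1 and SRF are shown because they held the CArG box, the site that the SRF protein binds. Windows were taken from RefSeq promoters (GRCh38.p14, 250 bases before to 50 after each start), which held 12 windows for 9 of the 10 genes and none for IER3, and the box is in capitals.
EGR1, chr5:138465364-138465393, plus strand: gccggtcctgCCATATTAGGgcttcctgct
EGR1, chr5:138465386-138465415, plus strand: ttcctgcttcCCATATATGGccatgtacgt
SRF, chr6:43171229-43171258, plus strand: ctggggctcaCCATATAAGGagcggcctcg
The EGR1 boxes began 105 and 83 bases before the start, and the SRF box shown began 30 bases before it, with a second copy 10 bases before it. A CArG box was present in 1.19% of 23164 promoter windows of genes in the table, searched on both strands. The EGR site GCGGGGGCG was found in the windows of SRF and BTG2 and in 6.19% of all windows, and GCGTGGGCG in no member's windows and in 0.989% of all. CCGGAAG, an ETS site that ternary complex factors can use, was in the window of IER2 and in 12.0% of all windows. TATAAA was in windows of BTG1 and SRF and in 9.84% of all, and the cyclic AMP response element TGACGTCA was in no member's windows and in 2.14% of all. EGR1 and SRF, which share the box, had log2 fold changes of 0.46 and -0.22, and neither passed the test.

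The BTG/TOB genes, whose products restrain proliferation and promote deadenylation, had log2 fold changes between -0.02 and 0.21, and none passed. BTG1 (chromosome 12, 92140278 to 92145897) was at 56.9 and 46.7 CPM in control and at 52.8 and 48.3 CPM in DKO, both DKO values lying inside the control range. Its log2 fold change was -0.02 (SE 0.19, 95% interval -0.44 to 0.39, edgeR adjusted p = 0.963), so changes beyond a fold of 0.739 to 1.31 lay outside the interval. BTG2 (chromosome 1, 203305491 to 203309602), a p53 target gene, was at 29.4 and 28.4 CPM in control and at 31.1 and 31.2 CPM in DKO. The clones did not overlap, yet the ratio of means was 1.08 and the log2 fold change of 0.12 did not pass (95% interval -0.31 to 0.55, edgeR adjusted p = 0.802). TOB1 (chromosome 17, 50862223 to 50867978) was at 45.01 and 32.1 CPM in control and at 51.0 and 37.7 CPM in DKO. In each clone the first library was the higher, and the log2 fold change was 0.21 (95% interval -0.25 to 0.68, edgeR adjusted p = 0.639). It was 0.0064 without control replicate 2, 0.0081 without DKO replicate 1, 0.43 when control replicate 1 was left out, 0.40 when DKO replicate 2 was. Removing GC and length trends gave 0.04. The value of BTG1 was positive without control replicate 1 or DKO replicate 2, and those of BTG2 and TOB1 were negative with ERCC totals.

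**Figure D3:**
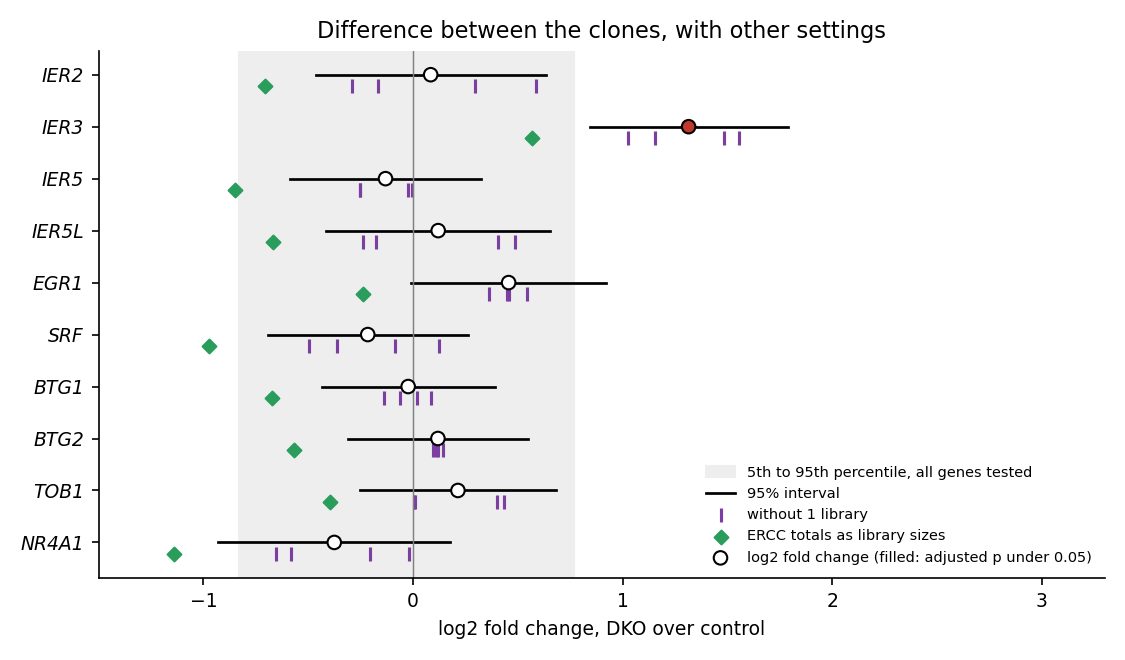
Log2 fold change of DKO over control for each of the 10 genes. Circles give the value (filled where the edgeR adjusted p is under 0.05), black lines the 95% interval, purple ticks the fits without 1 library, green diamonds the value with ERCC totals as library sizes and the grey band the 5th to 95th percentile of all tested genes; IER3 at 1.31 lies beyond the band, and the other 9 values lie inside it.

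Compared per length of merged exons, IER3 was the most abundant of the 10 mRNAs in the control clone, with 41.8 ± 5.46 CPM per kb (SD, n = 2). IER5L (29.6 ± 8.65), IER2 (21.0 ± 8.15), SRF (18.9 ± 5.14) and TOB1 (15.3 ± 3.63 CPM per kb) followed, and each of these 4 overlapped its neighbour in the order. BTG1 and BTG2 came next at 10.7 ± 1.49 and 10.5 ± 0.267 CPM per kb and overlapped each other. IER5 (6.47 ± 0.603), EGR1 (5.30 ± 0.181) and NR4A1 (2.36 ± 0.658 CPM per kb) were each separated from the next. Merged exons cover all annotated transcripts of a gene, for NR4A1 22 transcripts and 7295 bases. A shorter length would raise its level per kb, so its place and percentile hold for this length only. Other lengths were not tried. Among tested genes with an annotated length, IER3 stood at the 92nd percentile of control levels per kb, EGR1 at the 49th and NR4A1 at the 31st. In the DKO clone IER3 again led, at 103 ± 24.3 CPM per kb against 31.95 ± 9.33 for IER5L. EGR1 at 7.20 ± 0.487 there stood above IER5 at 5.86 ± 0.529 CPM per kb, the reverse of their order in the control clone.

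The genes are compact. Of the 10, 3 have 1 exon and 5 have 2 in the transcript with the longest 3′ UTR, where 7.95% of the tested protein-coding genes have 1 or 2 and the median is 8. The gene spans under 11000 bases for 9 of the 10, NR4A1 being the exception, and for 19.7% of the tested genes. GC content of the longest transcript ran from 38.7% in BTG1 and 42.1% in TOB1 to 61.7% in IER2 and 65.0% in IER5L, around a median of 47.9% in tested genes.

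The 2 libraries of a clone differed for several members in the same way in both clones. The differences are in log2 CPM after division by TMM normalization factors, with 0.5 added. Library 2 exceeded library 1 by 0.87 in control and 0.45 in DKO for IER2. For IER5L these differences were 0.67 and 0.64, for SRF 0.62 and 0.27, and for NR4A1 0.62 and 0.36. For IER3, the called member, they were 0.33 in control and 0.52 in DKO, at a GC content of 58.5%. TOB1 went the other way, with differences of -0.42 and -0.40, and so did BTG1 with -0.22 and -0.09. In all, 7 members were higher in library 2 of both clones and 2 were lower, while 36.0% and 35.2% of tested genes were. BTG2 is among the 7, at 0.0125 in control, though without the TMM factors its CPM there was lower in library 2 (29.4 and 28.4). EGR1 had a sign of its own in each clone, at -0.0050 and 0.17. The mitochondrial share of gene counts also differed between the libraries, at 2.53% and 0.448% in control and 3.59% and 1.16% in DKO, and its part in these differences was not tested. The members that were higher in library 2 by the most were GC-rich and those that were lower, TOB1 and BTG1, had the lowest GC content of the 10. Over 3675 tested genes with a GC content of 55% or more the median difference was 0.35 in control and 0.21 in DKO, and over 5133 genes under 45% it was -0.28 and -0.16. Across 13132 genes, which are not independent replicates and share libraries, Spearman's rho between GC content and the difference was 0.671 in control and 0.503 in DKO. With trends over GC content and length removed from each library, the log2 fold changes were 0.21 for IER2, 0.27 for IER5L, -0.05 for SRF, -0.13 for NR4A1 and 1.29 for IER3, and of the 10 IER3 passed (edgeR adjusted p = 0.000284).

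**Figure D4:**
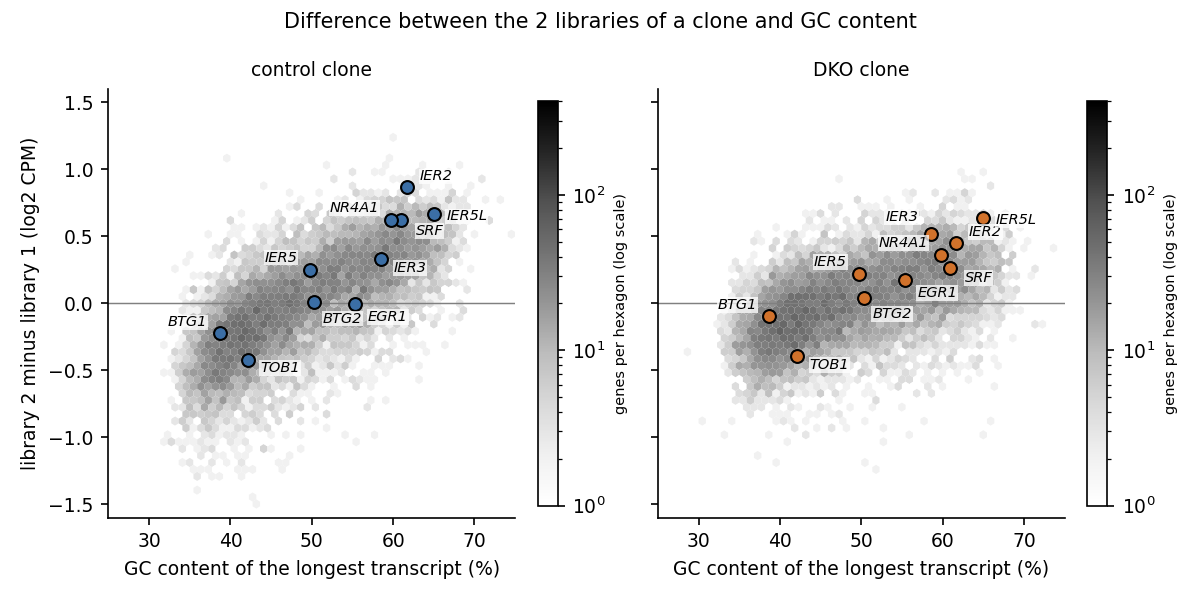
Difference between library 2 and library 1 of each clone against the GC content of the longest transcript in percent (horizontal axis). The vertical axis is in log2 CPM after division by TMM normalization factors, with 0.5 added. Grey hexagons count all tested genes on a log scale and labelled points are the 10 genes; TOB1 and BTG1 lie at the low end of GC content and below 0 in both clones, and IER2 and IER5L at the high end and above 0.

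Other genes of the same pathways were described from 8 lists. Among 38 tested further immediate early genes, 3 were called higher and 2 lower, and 33 did not pass, where 2.24% of all tested genes were called higher and 3.14% lower. The median log2 fold change of the list was 0.21, against 0.00 over all genes. Leaving out control replicate 1 or DKO replicate 2 moved the list's median to 0.05 in either case, and leaving out control replicate 2 or DKO replicate 1 to 0.33 and 0.31, while that of all genes stayed between -0.0092 and 0.01. KLF2, a Krüppel-like transcription factor, rose from 7.33 and 10.4 CPM in control to 17.0 and 22.03 CPM in DKO (log2 fold change 1.14, edgeR adjusted p = 0.0203). SOCS3, an inhibitor of cytokine signalling, rose from 5.06 and 5.12 to 8.37 and 13.5 CPM (1.13, edgeR adjusted p = 0.0359). The polo-like kinase gene PLK2 fell from 50.3 and 50.7 to 28.3 and 27.4 CPM (-0.85, edgeR adjusted p = 0.0213), and its chromosomal neighbours had a median of -0.41. Both increases were 0.39 with ERCC totals and did not pass there, and without DKO replicate 2 KLF2 was at 0.92 (edgeR adjusted p = 0.253) and SOCS3 at 0.70 (edgeR adjusted p = 0.578). PLK2 did not pass without DKO replicate 1 (edgeR adjusted p = 0.284), without DKO replicate 2 (edgeR adjusted p = 0.294) or with ERCC totals (edgeR adjusted p = 0.0921). Without DKO replicate 2 no gene of the list passed, in a fit that called 218 genes in all, and without control replicate 2, 8 were higher and 1 lower of 727 called. Without control replicate 1, 2 were higher and 6 lower of 2172 called, and without DKO replicate 1, 3 were higher and none lower of 235 called.

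Of the paralogues of EGR1 and NR4A1, only NR4A2 was tested. EGR2, EGR3, EGR4 and NR4A3 did not pass the filter, with at most 13 counts in any library. The paralogue NR4A2 was at 12.2 and 7.84 CPM in control and 10.7 and 7.85 CPM in DKO (log2 fold change -0.10). Of 5 tested EGR and NR4A relatives and partners none passed, and NAB1, a corepressor of EGR proteins, led with 0.37 (edgeR adjusted p = 0.329), or -0.27 with ERCC totals. Unadjusted edgeR p-values under 0.05 numbered 0, and DESeq2 and limma-voom each called 0.

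Among 18 tested relatives of BTG and TOB and partners in deadenylation none passed, with a median of 0.07. The poly(A)-binding protein gene PABPC1 led, at 1304 and 1285 CPM in control and 977 and 920 CPM in DKO (-0.44, edgeR adjusted p = 0.274). TOB2 was at 69.8 and 78.5 CPM against 73.0 and 67.3 CPM, and BTG3 at 15.9 and 16.7 CPM against 16.2 and 18.0 CPM, so both paralogues had overlapping groups. The deadenylase subunit genes that BTG and TOB proteins contact, CNOT7 and CNOT8, had log2 fold changes of 0.31 and -0.15. At an unadjusted edgeR p under 0.05 there were 0 genes of this list, and DESeq2 and limma-voom each called 0.

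Around SRF, none of 5 tested cofactor genes passed, with 1 higher at an unadjusted edgeR p under 0.05 and 0 called by DESeq2 and by limma-voom. The ternary complex factor gene ELK1 led at 21.5 and 20.2 CPM in control against 29.3 and 31.3 CPM in DKO (0.55, edgeR adjusted p = 0.143), or -0.13 with ERCC totals. None of 14 tested cytoskeletal targets of SRF passed, with 3 positive values and a median of -0.21. VCL, which encodes the adhesion protein vinculin, led at 364 and 461 CPM against 245 and 266 CPM (-0.68, edgeR adjusted p = 0.0706), and DESeq2 called this list's 1 gene (DESeq2 adjusted p = 0.0333). By unadjusted edgeR p-values under 0.05, 2 of these targets were lower, and limma-voom called 0. Leaving out control replicate 2 moved the median of the list to 0.01, leaving out DKO replicate 1 to -0.0036, leaving out control replicate 1 to -0.39, and leaving out DKO replicate 2 to -0.42.

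None of 19 tested p53 targets passed, led by the quinone oxidoreductase gene TP53I3 (0.76, edgeR adjusted p = 0.0689). Unadjusted edgeR p-values under 0.05 were found for 3 with higher and 3 with lower levels, where 9.57% and 10.6% of all tested genes had them, and DESeq2 and limma-voom each called 0. Of 12 tested genes for PP2A subunits and HSF1 none passed, led by the catalytic subunit gene PPP2CB (0.59, edgeR adjusted p = 0.0951), or -0.07 with ERCC totals. By the same unadjusted threshold this list had 3 higher and 1 lower, and DESeq2 and limma-voom each called 0. None of 13 tested kinases and GTPases of the ERK cascade passed, led by RPS6KA1, a kinase downstream of ERK, at 31.5 and 41.3 CPM in control and 17.8 and 23.4 CPM in DKO (-0.81, edgeR adjusted p = 0.0579). Of these 2 were lower at an unadjusted edgeR p under 0.05, DESeq2 called 1 and limma-voom 0. Without control replicate 1, VCL, TP53I3, PPP2CB and RPS6KA1 were at -0.87, 0.73, 0.73 and -1.02. Over all the fits without 1 library, VCL ran from -0.87 to -0.47 and TP53I3 from 0.56 to 0.94. In the same fits PPP2CB ran from 0.45 to 0.73 and RPS6KA1 from -1.05 to -0.56. These genes and ELK1 passed with GC and length trends removed. With no filter on low counts, VCL, TP53I3 and RPS6KA1 passed (edgeR adjusted p = 0.0317, 0.0316 and 0.0177), and PPP2CB and ELK1 did not. That fit called 1194 of 22155 genes.

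**Figure D5:**
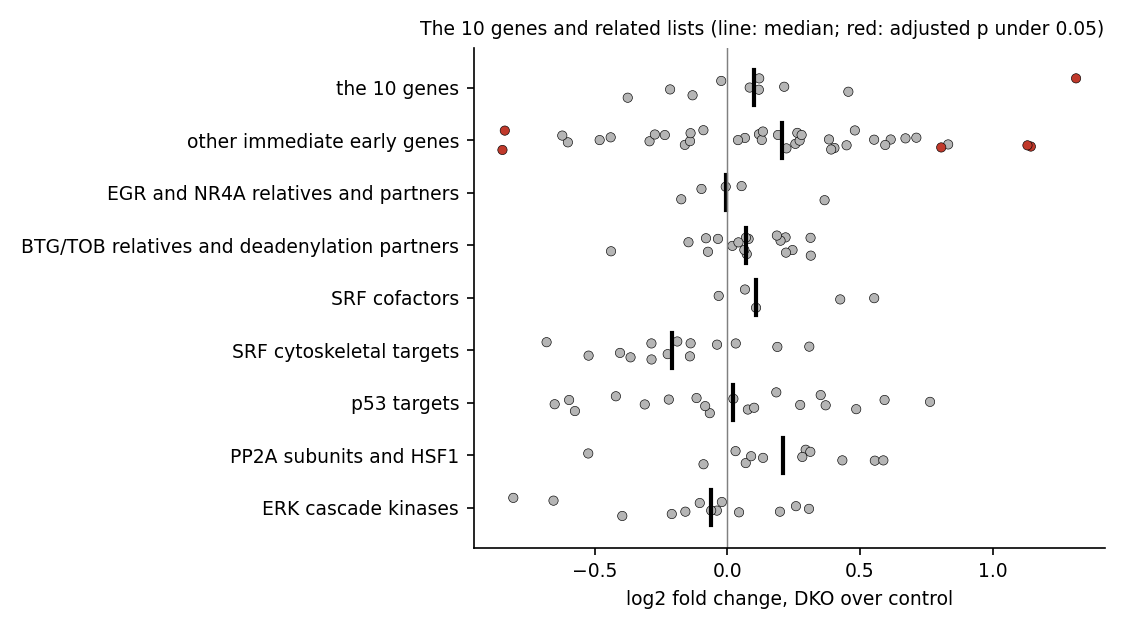
Log2 fold change of DKO over control for the 10 genes and for the tested members of the 8 lists. Each point is a gene, red where the edgeR adjusted p is under 0.05, and the black line is the median; IER3 is the red point of the 10 genes at 1.31, and the other 5 red points belong to the further immediate early genes.

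Reads from bases shared with other genes may be added to these values or missing from them. The strand setting and the handling of multiple matches are not given. Genes in the table that overlap IER2, IER5L, BTG1, TOB1 and NR4A1 had at most 8 counts in any library. These counts do not show whether reads from shared bases were left out of the members. IER3 overlaps the antisense gene IER3-AS1 over 359 exonic bases, and BTG1 overlaps AC025164.1 over 325, and neither has a row under that symbol.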

How the data were processed

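The deposited data are raw read counts, whole numbers without normalization, in 1 table with a row per gene and a column per library. Per the labels' protocols, ERCC spike-in RNA was added to total RNA before ribosomal RNA depletion, and strand-keeping libraries were read from 1 end. Tools named in the submitters' processing notes are featureCounts, Subread 1.6.3, STAR 2.5.3a and DESeq2, with the build hg38. Not given in the sources used here were the annotation, the strand setting and how multiple matches were counted. The table held 42169 genes and 92 spike-ins, and library sizes were taken over genes alone. Symbols of 40718 rows (96.56%) matched exactly 1 gene of GENCODE 29.

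Genes kept by filterByExpr (13359) were fitted over all 4 libraries with edgeR 4.0.16 (TMM factors, quasi-likelihood test, group as the only term, R 4.3.3), and a Benjamini-Hochberg adjusted p under 0.05 over all tested genes was required. The procedure was tested on simulated counts without GC trends and without spread shared by same-numbered libraries. That test therefore does not cover these features of the data. SE is the log2 fold change over the square root of its F value, and CPM is scaled to all gene counts of a library. Exact permutation of 2 against 2 libraries cannot go below p = 0.333 for a single gene. The labels name no molecular identifiers, so the level that 3 counts correspond to covers counting error only. The libraries of a clone were not duplicates of each other (chi-square per degree of freedom 33.6 and 27.1).

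Alternatives were DESeq2 1.42.0, limma-voom (limma 3.58.1), ERCC or plain library totals, no filter or a mean of at least 1 CPM, GC and length trends removed by loess, a replicate block, and fits without 1 library. The members and lists were chosen with earlier results of these data known. From each list, the up to 3 called genes with the smallest adjusted p were named, or the leading gene where none passed; NR4A2, EGR2 to EGR4, NR4A3, BTG3, TOB2, CNOT7 and CNOT8 were added after their values were seen.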

Additional observations from a re-analysis of the deposited data

How the results depend on the processing

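With all 4 libraries and scaling by TMM, DESeq2 or plain library totals, IER3 kept its call, and its log2 fold change lay between 1.29 and 1.33 in every setting other than ERCC totals and fits without 1 library. It was 0.57 with ERCC totals and ran from 1.03 to 1.56 without 1 library. The 10 genes gave 1 call, 0 with ERCC totals, and between 0 and 1 without 1 library. All genes gave 718 calls (299 higher and 419 lower), 692 with DESeq2, 701 with limma-voom, 329 with ERCC totals (22 and 307), 1194 with no filter (561 and 633), 2040 with GC and length trends removed, and between 218 and 2172 without 1 library. The 8 lists together gave 5 calls, 8 with DESeq2, 0 with ERCC totals, 11 with no filter, 23 with GC and length trends removed and between 0 and 21 without 1 library. The fit with no filter tested 22155 genes, where the main fit tested 13359, so their counts of calls are over different sets. Members with an AU-rich site numbered 5 with UAUUUAU, 2 with UUAUUUAUU and 9 with AUUUA.

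The labels state no pairing, and the correlation between same-numbered libraries of the 2 clones, as deviations from the clone means, was 0.470. With the replicate block, 2 of the 10 genes passed (IER3 and EGR1, the latter at 0.46, edgeR adjusted p = 0.0204). In that fit 4021 of all 13359 tested genes passed, and 42 of the 124 tested list genes. With the replicate block and GC and length trends removed, 3 of the 10 passed (IER5L also, at 0.27, edgeR adjusted p = 0.0396). There 4111 of all 13359 tested genes passed, and 49 of the 124 tested list genes.

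Directions that turned were not called in any of the fits concerned. With ERCC totals IER2 was -0.71, IER5L -0.67, EGR1 -0.24, BTG2 -0.57 and TOB1 -0.40. Without 1 library, IER2 ran from -0.29 to 0.59 (-0.17 without DKO replicate 2), IER5L from -0.24 to 0.49 (-0.18 without control replicate 1), SRF from -0.50 to 0.13 and BTG1 from -0.14 to 0.0857 (0.02 without DKO replicate 2). The causes were not tested. A fit without 1 library assumes that the lone library of its clone varies like the 2 of the other. The fewest counts of a member in a library were 120, for NR4A1, so its value has the least depth behind it.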
